A study of Mus musculus with 6 samples.

Results

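The nuclei described here are 165 neurons of the mouse colon whose counts were led by Nos1, the neuronal nitric oxide synthase gene, and by Thsd7b, Oprd1, Vwa5b1 and Bves. They were 27.4% of the 603 neurons found among 3461 nuclei kept of 11040 barcodes. A nucleus was kept if it had 300 genes or more and if no more than 5% of its UMIs (unique transcript counts) were mitochondrially encoded. It was taken as a neuron with at least 3 UMIs over Elavl4, Snap25, Syt1, Celf4, Rbfox3, Snhg11 and Ret. It was called a Nos1 nucleus where the 5 Nos1-class genes summed to at least 2 UMIs and to more than each of 3 other sums: Vip, Gal, Ntng1, Klhl1 and Scgn (the Vip set), Penk, Tac1, Bnc2, Oprk1 and Satb1 (the Penk set), and Nmu, Cdh8, Gpr149, Ano2 and Dgkg (the Nmu set). The remaining 438 neurons were 89 Vip and Gal nuclei, 212 Penk and Tac1 nuclei, 47 Nmu nuclei and 90 nuclei in no class.

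All mice were wild-type C57BL/6J, with no sex or age given in the labels. The Control group had 2 libraries with a control treatment that the labels do not describe further. For the Stress group, 3 libraries were made after 7 days of restraint each day, and the Dexamethasone group had 1 library from mice given dexamethasone, a synthetic glucocorticoid, by injection for 7 days. Nuclei came from whole colon and were sorted by a DNA stain and by INTACT, a nuclear tag used here to collect the enteric nervous system. Neither the driver of the tag nor the number of animals behind a library is given in the labels. The p-values here therefore rest on library-to-library spread, which may be technical.

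Neurons of this kind are the inhibitory motor neurons of the gut wall in textbook accounts. They release nitric oxide, made from arginine by Nos1, and the gas activates guanylate cyclase in smooth muscle and in interstitial cells, raises cyclic GMP and relaxes the muscle ahead of a moving bolus. Many also carry vasoactive intestinal peptide (Vip), and they lack the choline acetyltransferase (Chat) of the excitatory motor neurons.

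Nos1 lies on chromosome 5 at 117781032 to 117958840 (plus strand, GRCm38, GENCODE M21), and it supplied 4653 of the 7088 UMIs of the 5 class genes (65.6%). At least 1 Nos1 UMI was seen in 164 of the 165 nuclei. The other class genes were Thsd7b, a membrane protein with thrombospondin repeats, found in 140 nuclei; Vwa5b1, with a von Willebrand domain, in 115; Bves, a Popeye family membrane protein that binds cyclic AMP, in 106; and Oprd1, the delta opioid receptor, in 96. All 5 were found together in 69 nuclei, and 10 nuclei had only 1 of them. These values chose the nuclei and are given as a description.

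The rule was wide of its threshold for most nuclei. The median sum of the class genes was 29 UMIs per nucleus, and 133 nuclei had at least 10. Just inside the threshold were 3 nuclei with a sum of 2, 8 with a sum of 3, and 4 that led by 1 UMI, all 4 in Control 1. Just outside were 6 nuclei with a leading sum of 1 and 2 with a tie. Another 106 neurons had at least 2 class UMIs but more of another set, and 59 of them had a Nos1 UMI.

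Genes the rule did not use were read against the label. With every nucleus thinned to 2000 UMIs (137 Nos1 nuclei, 65 Vip and Gal, 166 Penk and Tac1, 35 Nmu and 357 glia; shallower nuclei, 28 of the Nos1 ones among them, left out), Etv1, a transcription factor, was found in 73.0% of Nos1 nuclei and 6.02% of Penk and Tac1 nuclei. Dgkb, a diacylglycerol kinase, was found in 83.2% and 6.63%. The other classes were not all low: Etv1 was found in 69.2% of Vip and Gal nuclei, and Dgkb in 58.5% of Vip and Gal and 65.7% of Nmu nuclei. Chat was found in 2.19% of Nos1 nuclei and 33.7% of Penk and Tac1 nuclei, and Slc5a7, the choline transporter, in 2.19% and 24.7%. Before thinning, Chat was found in 3.03% of Nos1 nuclei and 57.1% of Penk and Tac1 nuclei. Enteric glia, nuclei with at least 3 UMIs over glial genes and 0 over the neuron genes, were read as a reference for free RNA. Their median depth was 3664.5 UMIs. Nos1 was found in 2.24% of them after thinning and Chat in 0%. Etv1 was found in 24.9% of glia. Gfra1, the GDNF co-receptor, was about as frequent in glia (74.8%) as in Nos1 nuclei (72.3%). Penk and Tac1 nuclei had Etv1 in 6.02% and Gfra1 in 7.83%, so the glial share of these genes was not read as free RNA. No gene read here separates motor neurons from interneurons that carry Nos1, so the class is called by its leading gene.

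**Figure D1:**
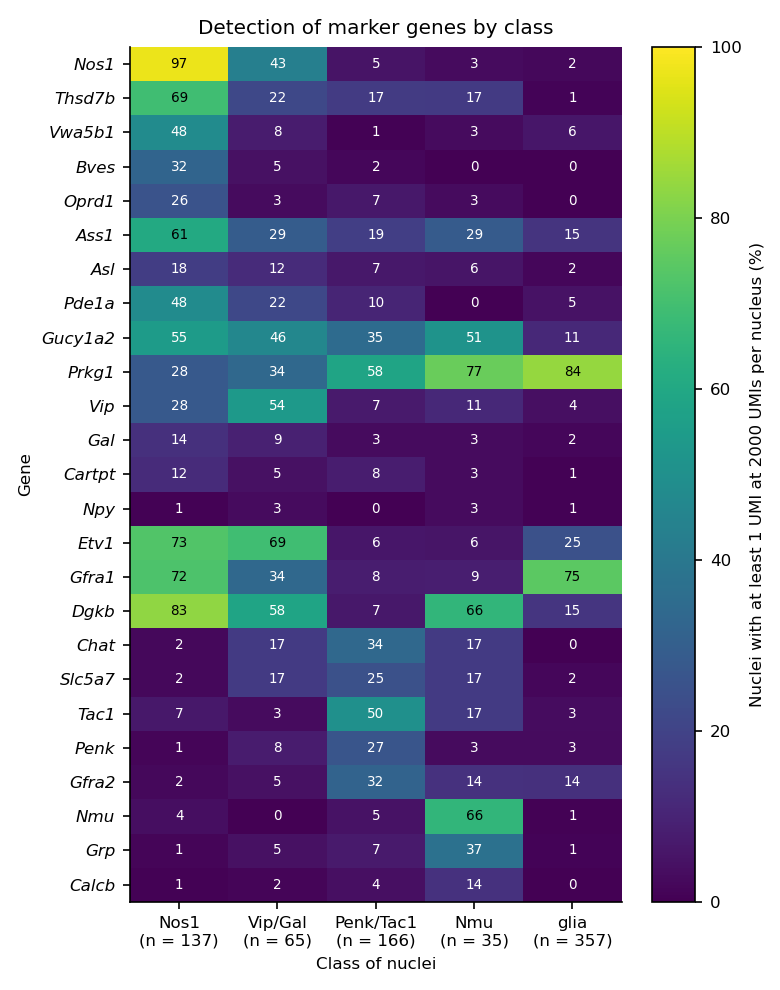
Share of nuclei with at least 1 UMI of each gene (%), by class, after thinning each nucleus to 2000 UMIs. Columns are the 4 neuron classes and glia with their numbers of nuclei, and rows are the genes of the rule and independent markers; Nos1 is found in 97.1% of Nos1 nuclei and 43.1% of Vip and Gal nuclei, while Chat is found in 2.19% of Nos1 nuclei.

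Control 1 and 2 gave 49 and 20 Nos1 nuclei. Stress 1, 2 and 3 gave 14, 32 and 40, and the Dexamethasone library gave 10. Their summed UMIs were 258918 and 97712 in the Controls, 81120, 353047 and 548155 under Stress, and 239566 under Dexamethasone. Median depth was 6461 UMIs per Nos1 nucleus and 4100.5 per other neuron; by library it was 3542 and 3962 in the Controls, 2943, 8665 and 10966.5 under Stress, and 11784 under Dexamethasone. Depth differed between libraries, and the Control medians lay within the Stress range. In the Dexamethasone library 1 nucleus of 128614 UMIs held 53.7% of the class sum; in the other libraries the largest nucleus held 7.17% to 21%. Scrublet scored 35 of the 3461 kept nuclei as doublets (1.01%), 1 of them a Nos1 nucleus, and doublets were kept. Over all pairs of libraries 17 barcodes were shared, none of them a Nos1 nucleus in either library. The limit on mitochondrially encoded UMIs also matters: without it 452 nuclei would have met the rest of the rule, 287 of them above the limit.

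Nos1 nuclei were 30.2% of the neurons in Control 1 (95% Wilson interval 23.7% to 37.7%) and 28.6% in Control 2 (19.3% to 40.1%). They were 37.8% (24.1% to 53.9%), 26.7% (19.6% to 35.2%) and 31.7% (24.3% to 40.3%) in Stress 1, 2 and 3. The Control libraries lay within the Stress range. Means were 29.4% ± 1.18 (SD, n = 2) and 32.1% ± 5.59 (SD, n = 3), a difference of 2.67 percentage points with p = 0.7 in an exact two-sided permutation test, in which 2 libraries against 3 cannot go below 0.1. The sign is not settled: the difference was −0.20 points without Stress 1, −3.65 when 500 genes were asked for and the mitochondrial limit was 2%, and −1.32 without the mitochondrial limit. The Dexamethasone share was 11.4% (6.29% to 19.7%), below every other library. At 2000 UMIs per nucleus it was 27.3% (9 of 33 neurons; 15.1% to 44.2%) against 29.6% to 38.8% elsewhere, with the intervals overlapping. Intervals cover counting error only.

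Set against the other neurons of the same library, the Nos1 nuclei held more Ass1 and Asl, the enzymes of arginine recycling, had channel genes that were higher and others that were lower, and almost lacked some genes common in the other classes. The nuclei were chosen on this contrast, so its values are a description with no test. Of 6691 genes with enough counts, 507 (7.58%) were higher in the Nos1 nuclei of all 6 libraries and 688 (10.3%) were lower; the median log2 fold change over all of them was −0.03. Each count of higher or lower genes of a list below stands beside these shares of 7.58% and 10.3%, and none is called particular to its list. Levels are given as CPM, UMIs per 1000000 UMIs of the class in a library, and fold changes compare 1 gene between classes.

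Nos1 itself was at 2526 and 2651 CPM in the Controls, 3107, 3235 and 3326 under Stress and 2183 under Dexamethasone. In the other neurons it was at 176 and 194, 272, 242 and 265, and 85.3 CPM. The ranges of the classes do not come near each other. In the Vip and Gal nuclei alone it was at 873 CPM, so that class also carries the transcript.

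The arginine and cyclic GMP genes split. The list of nitric oxide synthesis and cyclic GMP genes had 16 members measured beside Nos1; 3 were higher in every library (read against 7.58% of all genes), 2 were lower (against 10.3%), and the median log2 fold change was −0.01. Ass1, which joins citrulline, the by-product of Nos1, to aspartate, was at 630 and 389 CPM in the Controls, 431, 651 and 673 under Stress and 897 under Dexamethasone, against 135 to 222 in the other neurons. Asl, which completes the return to arginine, was at 96.6 and 102, 123, 139 and 130, and 154 CPM, against 25.1 to 63.6. The log2 fold changes were 1.89 ± 0.17 (SE) for Ass1 and 1.63 ± 0.22 for Asl, and neither gene's libraries overlapped between classes. Pooled over libraries, Ass1 was at 665 CPM in Nos1 nuclei, 375 in Vip and Gal nuclei and 139 in Penk and Tac1 nuclei. Asl was at 128, 75.3 and 36.8 CPM. Both enzymes thus stood highest with Nos1, but the Vip and Gal nuclei carried them too.

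Pde1a, a calcium-activated phosphodiesterase that breaks down cyclic GMP, was the remaining gene that was higher (log2 fold change 1.84 ± 0.17). Pooled over libraries it was at 458 CPM in Nos1 nuclei and 400 in Vip and Gal nuclei, so the 2 classes were close. Penk and Tac1 nuclei held 85.2 CPM of it and Nmu nuclei 7.88. Prkg1, the cyclic GMP-dependent kinase that acts in the cells receiving nitric oxide, was lower: 340 and 174 CPM in the Controls, 197, 232 and 184 under Stress and 246 under Dexamethasone, against 979 to 2242 in the other neurons (log2 −2.76 ± 0.20). Nos1ap, an adaptor that binds Nos1, was lower as well (−1.21 ± 0.25). Gucy1a2, a guanylate cyclase subunit (0.21 ± 0.18), and Pde5a, the main cyclic GMP phosphodiesterase (0.07 ± 0.21), overlapped between classes.

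Of the co-transmitter and peptide-processing genes outside the rule, Cartpt, the CART peptide precursor, was higher and Chgb, Cpe, Pam and Pcsk1, which store and cut peptides, were lower, so that 1 of 9 measured was higher (7.58% of all genes) and 4 lower (10.3%). Cartpt was at 66.8 to 174 CPM in Nos1 nuclei and 17.7 to 78.4 in other neurons, with the class value above that of the other neurons in each library. Vip, a rule gene of another class, was at 340 and 133 CPM in the Controls, 345, 221 and 533 under Stress and 1123 under Dexamethasone, and was found in 67 Nos1 nuclei (40.6%; 7.76% of glia). Gal, the galanin gene, was found in 48 (29.1%; 3.20% of glia). Npy, often used as a marker of these neurons, had 5 UMIs in 4 of the 165 nuclei (2.42%, against 0.913% of glia). Adcyap1, the PACAP precursor, had 0 UMIs, a count that allows up to 3, while Adcyap1r1, the PACAP receptor, was higher in every library (log2 1.23 ± 0.20).

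Of 11 cholinergic genes measured, Chat, Slc5a7, Ache (acetylcholinesterase) and Slc10a4 (a vesicle transporter) were lower in every library (10.3% of all genes) and Chrm2, a muscarinic receptor, was higher (7.58%). Chat had 6 UMIs in all and lay at 0 to 20.5 CPM, against 124 to 182 in the other neurons (log2 −5.06 ± 0.38). Chrm2 was at 776 and 1023 CPM in the Controls, 1023, 1161 and 828 under Stress and 509 under Dexamethasone, above the 368 to 641 of the other neurons library by library (log2 0.90 ± 0.17). The 3 measured peptides of excitatory, sensory and interneurons outside the rule, Calcb (CGRP), Grp and Sst, were all lower, with log2 fold changes of −3.40, −3.57 and −4.33. Among 14 transmitter and peptide receptors outside the rule, 1 was higher (7.58% of all genes) and 6 were lower (10.3%), including Tacr1, the substance P receptor (−4.24 ± 0.42), Htr4, a serotonin receptor (−3.23 ± 0.29), and Cnr1, a cannabinoid receptor (−1.39 ± 0.17). Pooled over libraries, Cnr1 was close in Nos1 nuclei (158 CPM) and Vip and Gal nuclei (163 CPM). In the same order Calcb was at 5.07 and 7.68 CPM, Grp at 11.4 and 15.4, and Sst at 27.9 and 41.5. Tacr1 (5.70 and 223 CPM) and Htr4 (13.3 and 101 CPM) were lower than in that class too.

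Growth factor receptors and transcription factors were found on both sides. Gfra1 was at 645 to 751 CPM in the 6 libraries against 39.7 to 504 in other neurons (log2 2.36 ± 0.33), with glia at 1105 CPM. Gfra2, the neurturin co-receptor, was at 0 to 11.6 CPM against 90.8 to 257 (−4.56 ± 0.32). Ltk, a receptor kinase, was higher (1.71 ± 0.29) and its relative Alk lower (−3.59 ± 0.28). In all, 2 of 11 receptors of this list were higher (7.58% of all genes) and 5 lower (10.3%). Etv1 was at 799 and 686, 641, 836 and 834, and 1115 CPM, against 164 to 318 (1.94 ± 0.16). It was the 1 transcription factor of 19 that was higher (7.58% of all genes). The Vip and Gal nuclei alone held 1040 CPM of Etv1, against 852 CPM in the Nos1 nuclei pooled over libraries. The list had 10 that were lower (10.3%), with a median log2 of −2.19 for the list. Casz1, a zinc finger factor, stood at 0 to 30.7 CPM against 192 to 444 (−3.94 ± 0.26).

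Channel genes moved in both directions. Cacnb2, a calcium channel beta subunit, was at 1305 and 1597 CPM in the Controls, 1257, 1569 and 1341 under Stress and 839 under Dexamethasone, against 233 to 403 in the other neurons (log2 2.23 ± 0.21). Cacna1c and Cacna1d, pore subunits of L-type channels, were each at a log2 fold change of 1.07, and Cacna1b, of N-type channels, at 0.43. These were the 4 of 17 sodium and calcium channel genes that were higher (7.58% of all genes), and 4 were lower (10.3%). Of 20 potassium channel genes 6 were higher (7.58% of all genes) and 4 were lower (10.3%), with Kcnn2 (−1.84 ± 0.19) and Kcnn3 (−1.36 ± 0.20), the calcium-activated SK channels, among the latter. Kcnj3, a G protein-gated inward rectifier, was higher at 1.33 ± 0.16, but the Vip and Gal nuclei alone held 439.5 CPM of it against 397.8 CPM in the Nos1 nuclei. Axon guidance genes were 3 higher (7.58% of all genes) and 7 lower (10.3%) of 20: the ephrin receptor Epha5 was at 1.85 ± 0.17 and the netrin receptor Dcc at 1.24 ± 0.22, while the netrin receptors Unc5c and Unc5d were at −3.74 and −3.38.

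The highest fold changes outside the rule belonged to Epha8 (an ephrin receptor, log2 4.68), Il20ra (an interleukin receptor subunit, 4.34), 1700113H08Rik (4.24), Dach2 (a transcription cofactor, 3.80), A130077B15Rik (3.67) and Popdc3 (3.67). Next came Gm48877 (3.38), Gm15601 (3.30), Gm26892 (3.10), Kcnj5 (an inward rectifier subunit, 3.05), Mfsd4a (a transporter, 3.02), Cmah (2.98), Stxbp6 (a SNARE-binding protein, 2.97), Kcnab1 (a potassium channel beta subunit, 2.90) and Wnt11 (2.88). Kcnab1 held the narrowest range, 1023 to 1241 CPM in the Nos1 nuclei of the 6 libraries against 50.2 to 258 in other neurons. Dach2 was at 201 and 348, 123, 320 and 232, and 188 CPM against 10.0 to 22.7, with no overlap. Popdc3, like Bves a Popeye family gene, lies on chromosome 10 at 45178098 to 45318452 (GRCm38, plus strand), and Bves starts 17319 bases beyond its end on the same strand. Gm48877 and A130077B15Rik, both on the minus strand of chromosome 10, lie 18524 bases apart. Mfsd4a and Gm26892 overlap on opposite strands of chromosome 1, and whether the counting used strand is not given in the sources used here, so their reads may not be told apart.

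The lowest were genes with almost no UMIs in the class. Fam19a1, a secreted neuronal protein, had 14 UMIs in all, at 0 to 19.3 CPM, where other neurons had 1690 to 3257 CPM (log2 −7.96 ± 0.31). Fam19a2, its relative, had 2 UMIs, against 299 to 789 CPM. Ptprt, a receptor phosphatase, had 7 UMIs against 176 to 888 CPM, and Mgat4c, a glycosyltransferase, 17 UMIs against 153 to 1329 CPM. Stac, Cbln2, Myl1 and Shisa6 had 1 or 2 UMIs each. Fam196b and Layn had 0, which allows up to 3 over the class. These genes were picked as lower than in the other neurons of every library. Their low level in Control, Stress and Dexamethasone alike therefore follows from the choice and is no separate result.

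**Figure D2:**
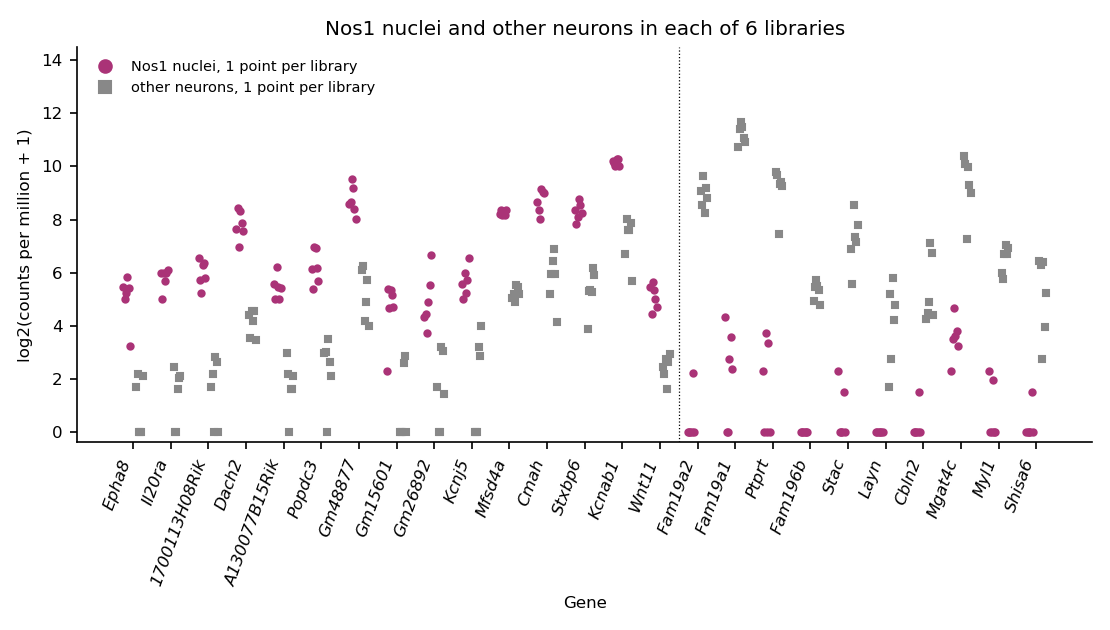
Level of the 15 highest and 10 lowest genes outside the rule, as log2(CPM + 1), in the Nos1 nuclei and the other neurons of each of the 6 libraries. Each point is 1 library; right of the dotted line the Nos1 nuclei are at or near 0, with Fam196b and Layn at 0 in all 6.

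The class was not uniform. A share of the Nos1 nuclei carried Vip-set UMIs in number, as the plot of that share against depth shows. Among 96 nuclei of at least 5000 UMIs, the Vip set made up at least 20% of the Vip-set and Nos1-class UMIs in 22 nuclei and at most 5% in 47, with 27 in between. The 22 were 7 and 1 in the Controls, 2, 3 and 8 under Stress and 1 under Dexamethasone; the 47 were 8 and 3, 3, 14 and 16, and 3. Both kinds were thus found in every library. The 20% and 5% limits and the genes named below were chosen after the values were seen, and all values are a description. Nos1 was at the same level in both, 2919 CPM, while Vip was at 1215 CPM in the Vip-rich nuclei and 22.2 CPM in the Vip-poor ones, by construction.

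Genes outside the rule differed with the Vip share in the 4 libraries that had at least 2 nuclei of each kind. Asic2, an acid-sensing ion channel subunit, was at 10042 CPM in Vip-rich and 1268 CPM in Vip-poor nuclei, and higher in the Vip-rich ones in 4 of 4 libraries. Kcnq5, an M-current potassium channel, was at 3096 and 437 CPM, Cntn5, a contactin adhesion molecule, at 2266 and 373 CPM, and Rbfox1, a splicing factor, at 2112 and 80.6 CPM, each in 4 of 4. Syn2, a synapsin, was at 325 and 40.3 CPM and Cartpt at 180 and 40.3 CPM, also in 4 of 4. In the Vip and Gal nuclei these genes stood at 5476 (Asic2), 4208 (Kcnq5), 2574 (Cntn5), 9095 (Rbfox1), 464 (Syn2) and 26.1 CPM (Cartpt). The Vip-rich Nos1 nuclei were above that class in Asic2 and Cartpt and below it in the other 4 genes. Kcnq5 was also at 2910 CPM in glia.

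Other genes fell with the Vip share. Dcc had 290 UMIs in the 47 Vip-poor nuclei (585 CPM, found in 27 of them) and 0 in the 22 Vip-rich ones, whose 532662 UMIs make the limit of a zero count 3 UMIs. Ntrk3, the neurotrophin-3 receptor, was at 1211 CPM in Vip-poor and 62.0 CPM in Vip-rich nuclei, Dach1, a transcription cofactor, at 625 and 16.9, and Opcml, an opioid-binding cell adhesion molecule, at 746 and 35.7. Pcdh7, a protocadherin, was at 627 and 33.8 CPM, and Kcnj3 at 673 and 82.6. All 6 were lower in the Vip-rich nuclei in 4 of 4 libraries. Vip-rich nuclei were deeper, with a median of 15835.5 UMIs against 9252. With the largest nucleus of each library left out, 17 Vip-rich nuclei remained, with Asic2 at 10126 CPM and Dcc at 0 UMIs.

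**Figure D3:**
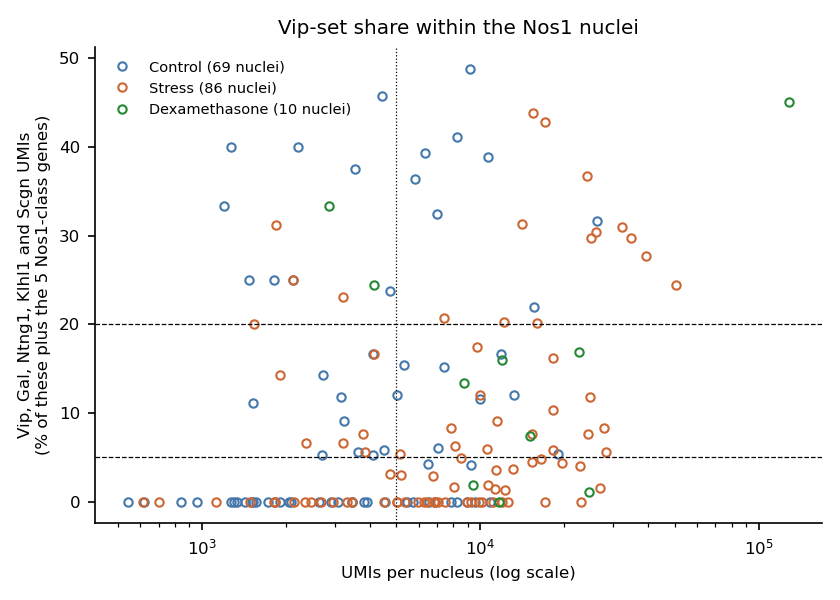
Share of the Vip set in the Vip-set and Nos1-class UMIs of each of the 165 Nos1 nuclei (%), against the UMIs of the nucleus (log scale), coloured by group. The dotted line marks 5000 UMIs and the dashed lines 5% and 20%; of 96 nuclei at or above 5000 UMIs, 22 lie at or above 20% and 47 at or below 5%, and the point at 128614 UMIs is from the Dexamethasone library.

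Few genes of the Nos1 nuclei passed the Stress test, and none passed without the limit on mitochondrially encoded UMIs. With so few libraries, a small count of calls does not show that few genes changed. With edgeR's quasi-likelihood test (Benjamini-Hochberg adjusted p under 0.05) 9 of 4682 genes passed, or 0.192%: 5 rose (0.107%) and 4 fell (0.0854%). At an unadjusted p under 0.05 there were 385 genes (8.22%), and for 1163 (24.8%) the Control and Stress libraries did not overlap. With that limit dropped, 0 of 8631 genes passed (462 at an unadjusted p under 0.05). Of the 452 nuclei in that fit, 287 lay above the limit, so it reads a largely different set of nuclei.

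The genes that fell were Gpc6, Chrm3, Nell1 and Kirrel3. Gpc6, a glypican, a heparan sulfate carrier at the cell surface (chromosome 14, 116925315 to 117976544, plus strand), was at 668 and 788 CPM in the Controls and at 37.0, 45.3 and 38.3 CPM under Stress. The log2 fold change was −4.15 ± 0.25 (SE; edgeR, adjusted p = 2.16e-07), and it passed with each library left out in turn. The groups are far apart, but few nuclei carry the Control level: 86 of the 173 UMIs of Control 1 came from 1 nucleus of 8223 UMIs and 60 of the 77 of Control 2 from 1 of 6309 UMIs. Those nuclei had 21 Vip-set UMIs against 30 of the Nos1 class, and 11 against 17. Without the nucleus of most Gpc6 UMIs in each library the levels were 347 and 186 CPM in the Controls and 28.2, 32.6 and 31.7 under Stress. Other neurons held far more, 4373 and 3377 CPM in the Controls and 3955, 3121 and 2145 under Stress. When the limit was dropped the Nos1 nuclei were at 313 and 161 CPM in the Controls and 243, 517 and 220 under Stress, and the log2 fold change turned to 0.37.

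Chrm3, a muscarinic acetylcholine receptor that couples to calcium release, was at 174 and 266 CPM in the Controls and at 0, 22.7 and 27.4 CPM under Stress (log2 −3.20 ± 0.41, edgeR adjusted p = 0.00233). Its counts were 45, 26, 0, 8 and 15 UMIs, and 13 of the 26 in Control 2 came from 1 nucleus with a class sum of 2 UMIs, the lowest the rule admits. Without the mitochondrial limit the fold change was −0.26. It was the 1 of 8 measured cholinergic genes that passed, against 0.192% of all genes, and the list's median log2 was 0.09.

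Nell1, a secreted protein with EGF repeats, was at 251 and 348 CPM in the Controls and 98.6, 42.5 and 100 under Stress (log2 −1.91 ± 0.33, edgeR adjusted p = 0.0297). Kirrel3, a synaptic adhesion molecule, was at 1383 and 1105 CPM in the Controls and 197, 479 and 597 under Stress (−1.46 ± 0.27, edgeR adjusted p = 0.0337). In neither gene did the groups overlap. For Kirrel3, 163 of 358 UMIs in Control 1 came from its largest nucleus and 76 of 108 in Control 2 from the 6309-UMI nucleus named above; without the largest nucleus of each library the log2 fold change was −1.05 (edgeR adjusted p = 0.20). Nell1 lost its call without Stress 1, 2 or 3 (edgeR adjusted p 0.053 to 0.080), and Kirrel3 without Control 1 or Stress 3 (0.070 each). With no mitochondrial limit the values were −0.44 for Nell1 and −0.46 for Kirrel3.

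Aldoa, the glycolytic enzyme aldolase A (ENSMUSG00000030695), was the 1 nuclear gene that rose. It was at 92.7 and 51.2 CPM in the Controls and 234, 255 and 279 under Stress (log2 1.69 ± 0.30, edgeR adjusted p = 0.0297), from 24, 5, 19, 90 and 153 UMIs. In the other neurons it was at 96.9 and 120 CPM in the Controls and 170, 292 and 317 under Stress, so their groups did not overlap either. With no limit the Nos1 levels were 96.1 and 115, and 155, 282 and 299 CPM (log2 1.14, edgeR adjusted p = 0.84). The call was lost without Control 2, Stress 1 or Stress 3 (edgeR adjusted p 0.070 to 0.13).

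The remaining 4 genes that rose were mt-Nd3 (log2 1.85), mt-Co3 (1.52), mt-Nd2 (1.33) and mt-Atp6 (1.22), encoded by the mitochondrial genome. The rule caps the sum of these genes at 5% of each nucleus, so they are given as values only. Of 13 measured, 13 had a fold change above 0, with a median log2 of 1.26 against 0.00 over all genes. Mitochondrially encoded UMIs were 1.09% and 0.763% of the class sums in the Controls, 2.60%, 2.87% and 1.63% under Stress and 3.48% under Dexamethasone. Without the limit they were 9.65% and 9.04%, then 16.5%, 8.40% and 8.06%, then 9.45%, and the Control values lay inside the Stress range.

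**Figure D4:**
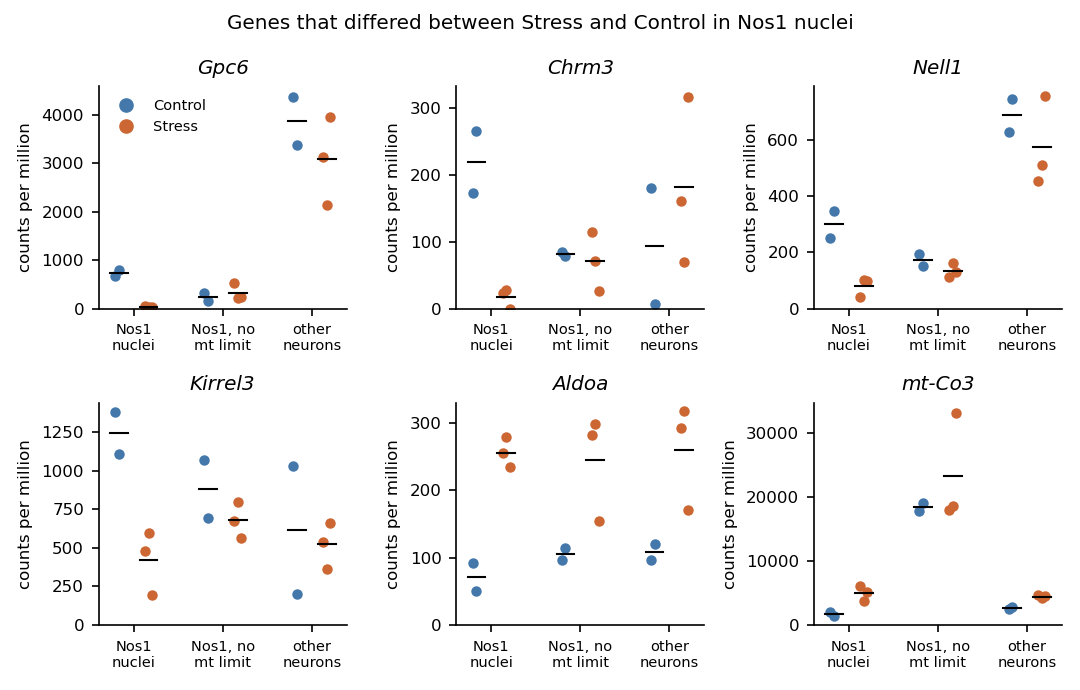
CPM of 6 genes in the Control (n = 2) and Stress (n = 3) libraries, for the Nos1 nuclei, the Nos1 nuclei with no limit on mitochondrially encoded UMIs, and the other neurons. Points are libraries and short lines are means; Gpc6 in Nos1 nuclei is at 668 and 788 in the Controls and 37.0 to 45.3 under Stress, and without the limit the groups overlap.

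The next lists gave no call. With 0.192% of all genes passing, a count of 0 is near the background for lists of this size. Nos1, although 1 of the rule's genes, had a Stress to Control log2 fold change of 0.31 ± 0.17. Ass1, Asl and the other measured genes of the nitric oxide list gave 0 calls of 16, with a median log2 of 0.15, and the libraries of 9 of the 16 did not overlap, against 24.8% of all genes. The co-transmitter genes gave 0 calls of 7, potassium channels 0 of 19, sodium and calcium channels 0 of 15, neuronal transcription factors 0 of 12, and receptors for transmitters and peptides 0 of 5. Glucocorticoid receptor targets gave 0 calls of 3 measured. Fkbp5, another target, had too few UMIs for the test in these libraries and was at 34.8 and 40.9 CPM in the Controls and 12.3, 28.3 and 21.9 under Stress. Nr3c1, the glucocorticoid receptor, was at 34.8 and 30.7, and 37.0, 42.5 and 40.1 CPM, from 3 to 22 UMIs (log2 0.25 ± 0.51). The error of the Nr3c1 value is larger than the value itself.

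Markers of other cells in the Nos1 nuclei were compared between these groups as well. The summed level of smooth muscle genes was 92.7 and 81.9 CPM in the Controls and 37.0, 125 and 140 under Stress, glial markers at 65.7 and 30.7, and 98.6, 48.2 and 52.9, and epithelial markers at 483 and 686, and 284, 487 and 297. Fibroblast markers were at 15.4 and 40.9, and 12.3, 17 and 96.7 CPM, and endothelial markers at 15.4 and 20.5, and 12.3, 11.3 and 27.4. These 5 sums overlapped between the groups. Macrophage markers did not overlap, at 7.72 and 20.5 CPM in the Controls and 37.0, 25.5 and 34.7 under Stress, from 2 and 2, and 3, 9 and 19 UMIs, with Csf1r and Cd163 at 0 in all libraries. The part of these markers in the results was not tested.

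The stress effect differed between the Nos1 nuclei and the other neurons of the same libraries for 5 of 6366 genes (0.0785%; edgeR, interaction with the library as a block). All 5 fell more in the Nos1 nuclei, none rose more (0.0%), and 312 genes (4.90%) had an unadjusted p under 0.05. Gpc6 differed by −3.65 on the log2 scale (adjusted p = 3.08e-05). Zfp804b, a zinc finger gene, differed by −4.25 (adjusted p = 0.0099), but 54 of its 59 Control 1 UMIs lay in the largest nucleus of that library and the value was −1.41 without the largest nuclei. Adarb2, a double-stranded RNA binding protein, differed by −4.14 (adjusted p = 0.0121), Skap1, a signalling adaptor, by −3.59 (adjusted p = 0.0272) and Kalrn, a guanine nucleotide exchange factor of synapses, by −2.43 (adjusted p = 0.0444). Kalrn was spread over nuclei, 11 in Control 1 and 9 in Control 2, and lay at 81.1 and 164 CPM in the Controls and 0, 25.5 and 20.1 under Stress, against 216 to 339 in the other neurons of both groups. Without the mitochondrial limit no gene passed, and Gpc6, Zfp804b, Adarb2 and Skap1 had the opposite sign.

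The Dexamethasone library was compared with the same Controls as Stress. It is 1 library of 10 Nos1 nuclei, and its spread is assumed to be that of the other libraries. Its counts came from a different Cell Ranger version, which cannot be told apart from the treatment. The count filter of this fit asked for enough UMIs in 1 library, so a gene could enter through the Dexamethasone library alone. The split into higher and lower genes and the shares of all genes given for it carry that limit. With edgeR's quasi-likelihood test 69 of 6036 genes passed (1.14%), 55 higher (0.911%) and 14 lower (0.232%), with 759 (12.6%) at an unadjusted p under 0.05. Since 1 nucleus held 53.7% of the UMIs, the fold changes of the named genes are also given without the largest nucleus of each library, where 19 genes passed, 14 of them among the 69. The Stress comparison gave 19 calls in that setting too. That nucleus had 326 Vip-set and 397 Nos1-class UMIs and 4.94% mitochondrially encoded UMIs.

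Of 28 listed glucocorticoid receptor targets 11 had enough UMIs for this test and 3 for the Stress test, so 8 entered only with the Dexamethasone library in the fit. Fkbp5, Zbtb16 and Klf9 passed and were higher, as 0.911% of all genes were. Fkbp5, a co-chaperone of the receptor (chromosome 17, 28399094 to 28517527, minus strand), was at 34.8 and 40.9 CPM in the Controls and 234 under Dexamethasone (log2 2.56 ± 0.47, edgeR adjusted p = 0.00553), above all 5 other libraries. Of its 56 UMIs 38 lay in the largest nucleus, and without the largest nuclei the log2 fold change was 2.05 (adjusted p = 0.27). In the other neurons Fkbp5 was at 45.1 and 42.4 CPM in the Controls and 333 under Dexamethasone. Zbtb16, a zinc finger repressor, was at 7.72 and 0 CPM in the Controls and 159 under Dexamethasone (31 of 38 UMIs in the largest nucleus; log2 4.62, and 3.26 with adjusted p = 0.59 without it). Klf9, a Krüppel-like factor, had 62 of 69 UMIs in that nucleus, and its log2 fold change of 2.80 became 0.59. Per1 and Tsc22d3 had 4 UMIs each under Dexamethasone and were too low for the test.

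A gene that passed with and without that nucleus was Ctnna3, an alpha-catenin of cell junctions (chromosome 10, 63430098 to 65003667, plus strand). It was at 92.7 and 113 CPM in the Controls, 98.6, 164 and 177 under Stress and 618 under Dexamethasone, found in 8 of the 10 nuclei. The log2 fold change was 2.53 ± 0.34 (edgeR adjusted p = 0.000224), 2.64 without the largest nuclei (0.000659) and 2.23 without the mitochondrial limit (0.046). The other neurons moved further, from 87.9 and 56.6 CPM to 1312. Smooth muscle markers also differed in the Dexamethasone Nos1 nuclei, with a sum of 735 CPM against 92.7 and 81.9 in the Controls; the largest nucleus had 358 CPM and the other 9 nuclei 1172. Endothelial markers were at 134 CPM against 15.4 and 20.5, and epithelial markers at 434 against 483 and 686. Their part in the results was not tested.

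Other genes that rose were Mecom (a zinc finger factor, log2 4.22), Homer1 (a synaptic scaffold and immediate early gene, 3.59), Actg1 (gamma actin, 3.34), Egr1 (an immediate early transcription factor, 3.18), S100a4 (a calcium-binding protein, 3.14) and Gpc5 (a glypican, 2.67). Of Mecom's 82 UMIs 76 came from the largest nucleus, of Gpc5's 118, 105, and of Egr1's 65, 48. Without the largest nuclei Homer1 was at 3.92 (edgeR adjusted p = 0.137), Actg1 at 2.71, Egr1 at 2.30, S100a4 at 2.17, Mecom at 1.51 and Gpc5 at 0.55, and none of these 6 passed. Egr1 and Homer1 were the 2 immediate early genes called (0.911% of all genes were higher); of 25 listed, 15 had enough UMIs here and 6 in the Stress test. The mitochondrially encoded genes, which the rule caps, gave 8 calls.

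Of the named genes that fell, Opcml and Gpc6 also passed without the largest nuclei. Opcml (chromosome 9, 27790775 to 28925410, plus strand) was at 796 and 409 CPM in the Controls, 592, 399 and 361 under Stress and 50.1 under Dexamethasone, from 12 UMIs (log2 −3.74 ± 0.49, edgeR adjusted p = 0.000224). Without the largest nuclei it was at −2.68 (adjusted p = 0.00505), and without the mitochondrial limit at −0.76 (adjusted p = 0.59). It is also among the genes that were low in Vip-rich nuclei, and the largest nucleus is one of those. The largest Control nuclei were not the ones that led for Opcml or Gpc6, so leaving them out keeps those leaders. With the leading nucleus of each library left out, Opcml was at 670 and 195 CPM in the Controls and 13.9 under Dexamethasone. Gpc6, whose values with all nuclei follow, was then at 347 and 186 CPM in the Controls and 72.1 under Dexamethasone. Gpc6 was at 100 CPM against 668 and 788 in the Controls (−2.94 ± 0.36, edgeR adjusted p = 0.000138), at −3.31 without the largest nuclei, and at 0.88 without the mitochondrial limit.

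The other named genes that fell were Chsy3 (−3.31), Lingo2 (−2.97), Rbfox1 (−2.52), Hdac9 (a histone deacetylase, −1.86), Efna5 (an ephrin, −1.65), Epha6 (−1.53), Gucy1a2 (−1.42) and Kcnb2 (a delayed rectifier potassium channel, −1.18). All passed edgeR's test with adjusted p between 0.00553 and 0.0335, and none passed without the largest nuclei. There Chsy3 was at −3.13, Rbfox1 at −2.05, Hdac9 at −1.20, Kcnb2 at −1.04, Efna5 at −0.86, Gucy1a2 at −0.58, Epha6 at −0.25 and Lingo2 at −0.10. Gucy1a2, the guanylate cyclase subunit, was at 583 and 512 CPM in the Controls, 321, 405 and 279 under Stress and 221 under Dexamethasone. It was the 1 member of 16 on the nitric oxide list that fell, against 0.232% of all genes. Nos1 was at −0.34 ± 0.24 and Vip, at 1123 CPM under Dexamethasone, had 251 of its 269 UMIs in the largest nucleus.

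**Figure D5:**
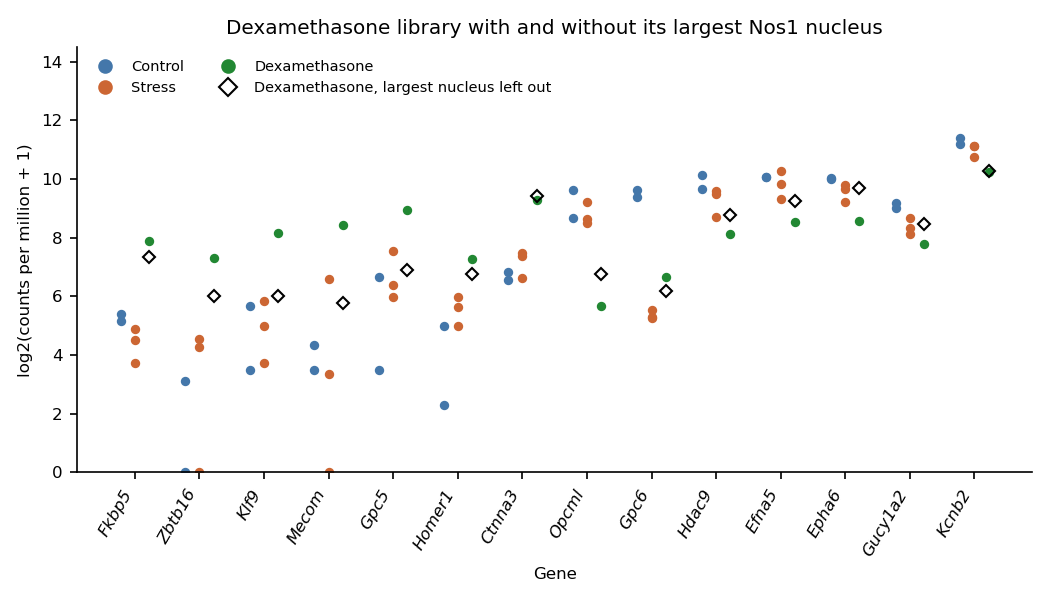
Level of 14 genes as log2(CPM + 1) in the Nos1 nuclei of each library, by group; diamonds give the Dexamethasone library without its largest nucleus. Opcml, Gpc6 and Ctnna3 keep their distance from Control in the diamonds, while Klf9, Gpc5 and Mecom move back toward it.

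The Dexamethasone effect differed between Nos1 nuclei and other neurons for 42 of 7887 genes (0.533%; edgeR interaction), 10 with a higher value in Nos1 nuclei (0.127%) and 32 with a lower one (0.406%), with 652 (8.27%) at an unadjusted p under 0.05. The count filter of this fit also asked for enough UMIs in only 1 class sum of 1 library. A gene could thus enter through the Dexamethasone library alone, and the calls, their split and these shares carry that limit. On the higher side were Mecom (log2 difference 4.99), Dmbt1 (3.29) and Ebf1 (2.63), and most of their UMIs lay in the largest nucleus: 76 of 82, 48 of 57 and 152 of 191. Cftr, a chloride channel gene and 1 of the epithelial markers read here, had 23 of 23 UMIs there and 0 in the Controls. Its fitted difference of 10.69 thus depends on the prior count and is no bound. In Stress 2, 1 nucleus of 4137 UMIs with a class sum of 5 led for Cftr (15 of 19 UMIs) and for Mecom (14 of 34). Over the whole epithelial list the largest Dexamethasone nucleus was at 303 CPM and the other members at 586. The part of epithelial transcripts in these differences was not tested. On the lower side were Ltbp1 (−4.29), Opcml (−4.05), Slc35f1 (−3.39), Il1rapl1 (−2.98) and Dpp10 (−2.81). Opcml in the other neurons was at 49.6 and 81.3 CPM in the Controls and 78.6 under Dexamethasone, while in the Nos1 nuclei it was far lower under Dexamethasone than in the Controls. Without the mitochondrial limit no gene passed.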

How the data were processed

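Nuclei of 6 libraries were analysed. The deposited counts are whole-number UMI counts per gene and barcode, made by the authors with Cell Ranger 4.0.0 for Control and Stress and 5.0.1 for Dexamethasone, per the file headers; the submitters' processing notes name Cell Ranger 5 and 5.0 and the build mm10. Other deposited values name the genes and the barcodes. Use of intronic reads or of strand is not given in the sources used here. Of 31053 gene IDs, 30934 were found in GENCODE M21 (GRCm38).

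UMIs of the class were summed per library, and CPM is scaled to 1000000 UMIs of that sum. Stress and Dexamethasone were compared with Control with edgeR 4.0.16 (R 4.3.3), TMM scaling, filterByExpr and quasi-likelihood tests with Benjamini-Hochberg adjustment. Stress was fitted over the 5 Control and Stress libraries and Dexamethasone over all 6; the interaction fits added the other neurons with the library as a block. The test was also run on simulated library sums, which held no nucleus that led a gene. No result here rests on that run. DESeq2 1.42.0, other filters, thinning and left-out libraries or nuclei were alternatives. Doublets were scored with scrublet in scanpy 1.11.5 at 1 threshold of 0.2, set after its automatic threshold was seen to move with rounding error in 2 libraries. Python was 3.11.15, with scipy 1.17.1.

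The nuclei, gene lists and tests were chosen with earlier results of these data known. Genes were named by rule: the 10 genes of largest fold change in each direction, or fewer, past adjusted p 0.05, whose mean log2 CPM was 6 or more and whose libraries did not overlap, plus up to 10 list members past the threshold; where under 5 passed, the 8 of smallest p in each direction were candidates. For interactions it took up to 5 in each direction past the threshold, else the 3 of smallest p. For the class contrast it took the 15 highest and 10 lowest genes outside the rule with at least 30 UMIs and 1 direction in all libraries. Markers and a short set including Nos1, Vip, Chat, Fkbp5, Nr3c1, Etv1 and Gfra1 were always read. Some genes that the rule names are not reported here.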

Additional observations from a re-analysis of the deposited data

Results flagged for a closer look

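The effect of stress differed between the Nos1 nuclei and the other neurons, by edgeR's test of the difference itself, for 5 genes: Gpc6 (log2 difference −3.65), Zfp804b (−4.25), Adarb2 (−4.14), Skap1 (−3.59) and Kalrn (−2.43). All 5 fell further in the Nos1 nuclei. In Control 2, 1 nucleus of 6309 UMIs held the most UMIs of Gpc6 (60 of 77) and Adarb2 (6 of 7). In Control 1, the largest nucleus led for Zfp804b and Adarb2 and the 8223-UMI nucleus for Gpc6 and Skap1.

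The effect of Dexamethasone differed in the same test for 42 genes. Those named with a higher value in the Nos1 nuclei were Cftr (10.69, fitted against 0 UMIs in Control and so no bound), Mecom (4.99), Dmbt1 (3.29) and Ebf1 (2.63). Cftr is 1 of the epithelial markers read here. Those with a lower value were Ltbp1 (−4.29), Opcml (−4.05), Slc35f1 (−3.39), Il1rapl1 (−2.98) and Dpp10 (−2.81). The Dexamethasone arm is 1 library, and the nucleus of 128614 UMIs gave 53.7% of its Nos1-class UMIs. The count filter of this fit let a gene enter through that library alone, and the calls carry that limit.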

How the results depend on the processing

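The smallest class sums were 81120 UMIs in Stress 1 and 97712 in Control 2. Leaving out the largest nuclei, thinning nuclei to at most 10000 UMIs, and dropping the mitochondrial limit were alternatives chosen after seeing the data. For Stress, where 9 genes were called, DESeq2 called 14, at most 10000 UMIs per nucleus 28, a class lead of at least 2 UMIs 17, no filter on low counts 44, leaving out the largest nuclei 19, no mitochondrial limit 0, and library sums thinned to the smallest 19. Leaving out 1 library gave 4 to 30 calls. The fit with the replicate block gave 40, the 9 calls among them, for Stress, and 82 for Dexamethasone. Deviations of same-numbered Control and Stress libraries from their group means correlated at −0.033 and 0.016. With 2 Controls, the deviations of 1 mirror those of the other, so these values are not separate checks. They cannot decide whether the shared numbers mark pairs.

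For the stress difference between classes (5 calls), the counts were 2 with at most 10000 UMIs, 12 with no filter, 1 without the largest nuclei, 3 without doublets, 0 without the mitochondrial limit, 3 under the stricter nucleus filter (500 genes, 2% mitochondrial limit), and 2 to 19 with 1 library left out. For Dexamethasone (69 calls) they were 12 with Control and Dexamethasone libraries only, 25 by DESeq2, 17 with at most 10000 UMIs, 120 with no filter, 19 without the largest nuclei, 35 without the mitochondrial limit, 22 under the stricter filter, 40 with sums thinned to the smallest, and 45 to 147 with 1 library left out. For the Dexamethasone difference between classes (42 calls) they were 0 without the mitochondrial limit, 119 under the stricter filter and 19 to 74 with 1 library left out. The 1195 genes with 1 direction in all libraries of the class contrast became 2464 without the mitochondrial limit. The share difference was −3.65 points under the stricter filter, −1.32 without the mitochondrial limit, and −0.20 to 5.38 with 1 library left out.

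Some log2 fold changes changed sign. Without the mitochondrial limit, Gpc6 was at 0.37 for Stress and 0.88 for Dexamethasone, Nr3c1 at 0.21, mt-Co1 at −0.11, mt-Co3 at −0.051, mt-Nd1 at −0.33 and mt-Nd4 at −0.27 for Dexamethasone, and the stress differences of Adarb2, Gpc6, Skap1 and Zfp804b at 0.89, 0.80, 0.33 and 0.53. Fcgbp was at −0.10 to 4.83 with 1 library left out. Tef for Dexamethasone was at 0.49 with at most 10000 UMIs, 0.93 without the mitochondrial limit and −0.24 to 0.32 with 1 library left out. Etv1, near 0 in both comparisons, was at −0.010 without the largest nuclei, −0.15 without the mitochondrial limit, −0.19 under the stricter filter, −0.012 with thinned sums and −0.068 without Control 2 for Stress. For Dexamethasone it was at −0.00308 with at most 10000 UMIs, −0.0785 without the largest nuclei, −0.15 without the mitochondrial limit and −0.25 under the stricter filter. Gfra1 was at −0.040 for Stress under the stricter filter, and for Dexamethasone at 0.0025 by DESeq2, 0.42 with at most 10000 UMIs, 0.018 with the class lead, 0.33 without the largest nuclei, 0.32 without the mitochondrial limit, 0.18 under the stricter filter, 0.19 with thinned sums and −0.063 to 0.021 with 1 library left out. The cause was not tested.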

Other observations

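Of 20 glutamate and GABA receptor genes, 4 were higher than in the other neurons of every library (7.58% of all genes) and 6 were lower (10.3%). Gria3, an AMPA receptor subunit, was at 212 and 338 CPM in the Controls, 407, 229 and 290 under Stress and 267 under Dexamethasone, against 21.2 to 147 in the other neurons (log2 2.09 ± 0.28, SE). Gabrb2, a GABA-A receptor subunit, was at 16.7 to 68.0 CPM against 0 to 10.0. Grm8, a metabotropic glutamate receptor, had 7 UMIs in the class (log2 −4.34 ± 0.37). Among 20 synaptic genes, Lrrtm4, a postsynaptic adhesion protein, and Nrxn2, a neurexin, were higher (7.58% of all genes), and Cntnap2, Nrxn3, Syn2 and Vamp2 were lower (10.3%). Basp1 and Gap43, growth cone proteins, were at −2.55 ± 0.31 and −1.26 ± 0.20. These values describe the contrast that chose the nuclei.

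In the stress comparison, Arntl, the core clock factor, was at 77.2 and 81.9 CPM in the Controls and 24.7, 28.3 and 25.5 under Stress, from 20, 8, 2, 10 and 14 UMIs. The groups did not overlap, and edgeR's adjusted p was 0.238. Hspa8, a constitutive chaperone, was at 116 and 61.4 CPM in the Controls, 210, 193 and 250 under Stress and 326 under Dexamethasone. Its edgeR adjusted p was 0.227 for Stress. Scg2, a granin of dense core vesicles, was at 205 and 113, 308, 286 and 483, and 505 CPM (edgeR adjusted p = 0.251 for Stress). Stat3, a transcription factor of cytokine signalling, was at 69.5 and 51.2 CPM in the Controls and 111, 96.3 and 131 under Stress. Under Dexamethasone it was at 250 CPM, with a log2 fold change of 1.86 ± 0.40. The largest Dexamethasone nucleus held 53.7% of the class UMIs there. Values of Hspa8, Scg2 and Stat3 without it are not reported here. Both comparisons share the Control libraries.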
